A study of Mus musculus and Callithrix jacchus with 22 samples.

Results

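Somatostatin interneurons were described in single-cell ATAC-seq data of mouse and marmoset neocortex, an assay in which a transposase cuts and tags accessible DNA. They were taken as the cells that the authors' annotation named Inh_Sst in the cell tables of both species. The name was carried by 1886 of 35064 cells, of which 930 were among 19145 mouse cells and 956 among 15919 marmoset cells. Mouse libraries were from wild-type C57BL/6 animals, from somatosensory with motor cortex, and were made at P1, P7 and P21 (1, 7 and 21 days after birth), with 4 libraries at each age. At each age 2 mouse libraries had a pair of numbers after the age in their titles (numbered libraries) and 2 had titles beginning with Pool. The labels explain neither, and the cell table writes Pool before all 12 names. Marmosets, small New World monkeys, were labelled wild type, with somatosensory cortex as the tissue (the study's methods give motor cortex as well), and comprised 5 newborn libraries (Day0) and 5 adult libraries, 2 labelled Y7 and 3 labelled Y8. No strain was given for the marmosets, and no treatment separated the groups of either species. The labels also quote a protocol for sorting labelled projection neurons, whereas the study describes unfractionated tissue for these libraries. Mouse libraries were made by combinatorial indexing on plates and marmoset libraries with a droplet kit after a sort for live cells, so species and chemistry cannot be told apart and no test was made between species.

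Somatostatin interneurons are inhibitory cells that release GABA together with the neuropeptide somatostatin. They arise in the medial ganglionic eminence (MGE), an embryonic source that they share with parvalbumin interneurons, and the transcription factor Lhx6 marks this lineage. Many of them, the Martinotti cells, send axons to the upper layers and contact the dendrites of pyramidal neurons, whereas parvalbumin cells mostly contact cell bodies and the start of the axon.

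For each cell the tables gave its reads, its accessible peaks, a cluster and a name. They held no value for Sst, Lhx6 or any other gene, so the name was not checked against its markers here. Libraries held 893 to 3407 mouse cells and 1209 to 1814 marmoset cells. Shares describe the cells recovered, which need not mirror the tissue, and intervals on them cover counting error only. Nothing in the labels says that libraries came from separate animals, so p-values measure the spread between libraries, which may be technical. Cell barcodes recurred between libraries in 4247 cases in mouse and 147 in marmoset, and 465 mouse and 17 marmoset somatostatin cells had such a barcode. Within a mouse age, barcodes recurred only between the numbered and the Pool library of the same number, 239 and 109 at P1, 333 and 263 at P7 and 557 and 331 at P21 for numbers 1 and 2, and 0 between libraries of different numbers. Whether libraries of the same number shared a preparation was not tested, and they entered the tests as separate units. None of the recurring barcodes had the same reads and peaks in both libraries. Only 14 mouse barcodes, and 0 marmoset barcodes, belonged to a somatostatin cell in more than 1 library. A few libraries stood apart in peaks for their reads. The first and second Day0 libraries had 46.9 and 48.3 peaks per 100 reads in somatostatin cells and the other newborn libraries 51.4 to 51.8, and the first Pool library of P7 had 52.0 against 54.9 to 55.0. Results without them are given where they bear on a comparison.

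The name was tied to age and to cluster. No cell at P1 was named Inh_Sst, 0 of 4092 neurons. Names were given to whole clusters at each age, so this 0 describes the naming and sets no limit on the share of somatostatin cells at P1. The 571 somatostatin cells found at P7 all belonged to cluster 6, and the 359 found at P21 to cluster 17, which held no somatostatin cell of another age. In marmoset all 675 newborn cells were in cluster 9 and all 281 adult cells in cluster 22. The authors split clusters by time point before naming them, so names could differ by age within a cluster. The cluster numbers given here do not carry that split, since cluster 6 held cells of P1, P7 and P21. The cause of the separation by cluster number was not tested.

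Cluster 6 was also the place of the P1 cells named Inh_MGE, a name for the whole MGE lineage. It held 347 such cells, 8.29% ± 1.99 of neurons (SD, n = 4 libraries, range 6.13% to 10.6%). At P7 the same cluster, now named Inh_Sst, held 12.6% ± 1.49 of neurons (SD, n = 4, range 10.6% to 14.2%). The lowest P7 library lay within the P1 range by a narrow margin, 10.61% against 10.63%, and no test was made because the name changed between the ages. At P21 the cluster held 7 cells in 3 libraries, all unassigned. At P1 the median peak count of the cluster's cells was 682 and 561 in the numbered libraries, on medians of 4100.5 and 5240 reads. It was 1113 and 914 in the Pool libraries, on medians of 1894 and 1580 reads. The numbered P1 libraries thus had more reads but fewer peaks per cell than the Pool libraries.

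Somatostatin cells took a smaller share of mouse neurons at P21 than at P7. At P7 they were 12.7% of neurons in numbered library 1 (136 of 1067 neurons, 95% Wilson interval 10.9% to 14.9%) and 12.8% in numbered library 2 (134 of 1049, 10.9% to 14.9%). The Pool libraries of P7 gave 14.2% (191 of 1342, 12.5% to 16.2%) and 10.6% (110 of 1037, 8.88% to 12.6%). At P21 the shares were 5.14% (162 of 3151, 4.42% to 5.97%) and 4.71% (87 of 1847, 3.83% to 5.77%) in the numbered libraries. All intervals of P21 lay below all intervals of P7, as did those of the Pool libraries of P21, which gave 4.91% (60 of 1221, 3.84% to 6.27%) and 4.50% (50 of 1112, 3.43% to 5.88%). The mean was 12.6% ± 1.49 at P7 and 4.82% ± 0.276 at P21 (SD, n = 4 each), a fold of 0.382 and a difference of -7.77 percentage points. The exact two-sided permutation test over libraries gave p = 0.0286, the smallest that 4 against 4 libraries allow, and 0.0317 after Benjamini-Hochberg adjustment over 6 tests. The difference was -7.83 points in the numbered and -7.71 points in the Pool libraries, too few on their own for a test to pass.

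In marmoset the difference went the other way. The 5 newborn libraries gave 10.8%, 12.5%, 10.8%, 10.7% and 11.3% of neurons, from 120 to 146 somatostatin cells among 1108 to 1352 neurons in each. Of the adult libraries, Y7 gave 22.5% (85 of 378, 95% Wilson interval 18.6% to 27.0%) and 33.7% (88 of 261, 28.3% to 39.7%). The Y8 libraries gave 46.2% (48 of 104, 36.9% to 55.7%), 31.5% (23 of 73, 22.0% to 42.9%) and 43.5% (37 of 85, 33.5% to 54.1%). No adult library overlapped the newborn ones, but the adult values rest on 73 to 378 neurons in each library and spread over a wide range. The mean rose from 11.2% ± 0.758 to 35.5% ± 9.57 (SD, n = 5 each), 3.16-fold, with a difference of 24.2 percentage points (exact permutation p = 0.00794, adjusted p = 0.0317). Some libraries had makeups that differed by less than the sampling noise, and with these averaged, to 3 newborn and 4 adult units, the difference of 23.7 points no longer passed (exact permutation p = 0.0571). Relative to all annotated cells instead of neurons, somatostatin cells were 8.03% ± 0.457 of newborn and 3.90% ± 2.35 of adult libraries (SD, n = 5 each). Without the first and second Day0 libraries the difference in the share of neurons was 24.5 points (exact permutation test, n = 3 and 5, adjusted p = 0.0317). The rise was thus in the share among neurons, of which adult libraries held 901 in all and newborn libraries 6025.

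**Figure D1:**
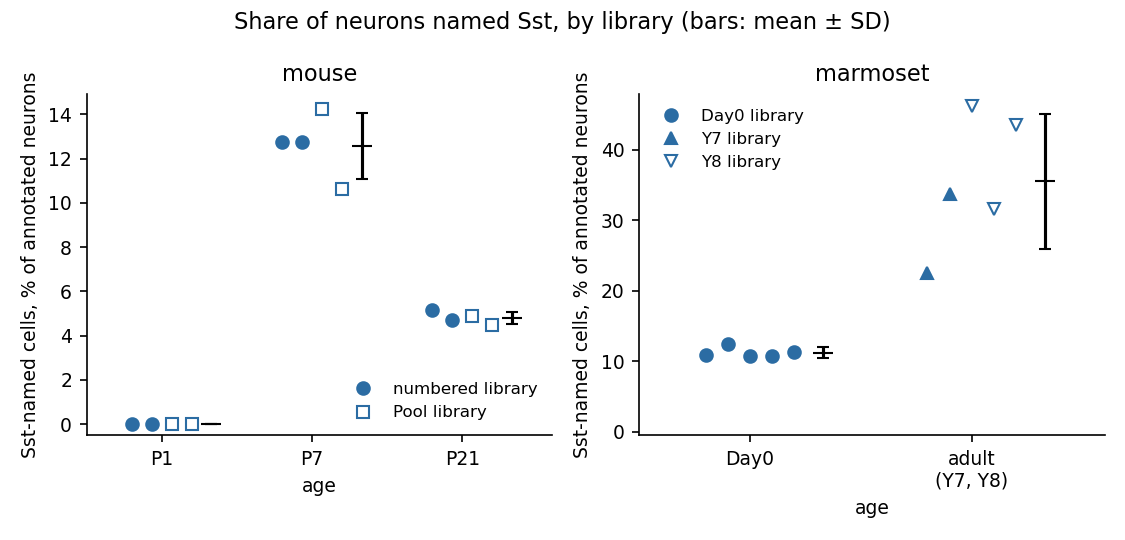
Somatostatin cells as a percentage of annotated neurons (vertical axis) in each library, by age (horizontal axis), for mouse and marmoset on separate scales; symbols mark the library series or adult label and bars give the mean ± SD. The 4 libraries of P21 lie near 4.82%, below all 4 of P7, and the 5 adult marmoset libraries spread from 22.5% to 46.2%, above all newborn ones.

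The set of interneuron names differed between ages, and the shares carry that. Parvalbumin cells were named at P21 but not at P7, and in newborn but not in adult marmoset, so this sister type from the MGE was counted under its own name at 1 age of each species and not named at the other. With parvalbumin and somatostatin names counted together, the share was 12.6% ± 1.49 at P7 and 9.47% ± 0.381 at P21 (SD, n = 4 each), with a difference of -3.12 points (exact permutation test, adjusted p = 0.0317). Marmoset joint shares were 24.8% ± 1.44 for newborns and 35.5% ± 9.57 for adults (SD, n = 5 each), 10.7 points apart (exact permutation test, adjusted p = 0.0476). Both differences kept their direction and shrank to less than their size for somatostatin cells alone. These joint shares, and the shares against Npy, Vip and pyramidal names given next, were chosen after seeing the data. The marmoset NPY name was also given to 330 newborn cells and to no adult cell, and the joint share leaves it out. All interneuron names together were 45.5% ± 2.08 of newborn and 49.6% ± 11.1 of adult marmoset neurons (SD, n = 5 each). In mouse they were 16.7% ± 1.82 at P7 and 13.2% ± 0.756 at P21 (SD, n = 4 each). Which cells an age without a parvalbumin or NPY name placed under another name was not tested.

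Somatostatin cells were also set against 1 other name that both ages of a species used. In mouse that name was Inh_Npy, cells named for neuropeptide Y, a peptide found in several interneuron types, some somatostatin cells included. Somatostatin cells outnumbered them 3.12 ± 0.552 to 1 at P7 and 1.31 ± 0.190 to 1 at P21 (SD, n = 4 libraries each). As a share of both names together they fell from 75.4% ± 3.29 to 56.5% ± 3.35 (SD, n = 4), and the groups did not overlap (adjusted p = 0.0317, exact permutation test). In marmoset the shared name was Inh_Vip, interneurons that release vasoactive intestinal peptide and mostly contact other interneurons. For each Vip cell there were 0.746 ± 0.0681 somatostatin cells in newborn and 2.56 ± 0.710 in adult libraries (SD, n = 5 each). Their share of both names rose from 42.7% ± 2.21 to 71.0% ± 5.34 (SD, n = 5, adjusted p = 0.0317, exact permutation test). At P21 the counts of somatostatin and parvalbumin cells were close, 359 and 326, with ratios of 0.893 to 1.34 in single libraries. At Day0 there were 0.842 ± 0.137 somatostatin cells for each parvalbumin cell (SD, n = 5).

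**Figure D2:**
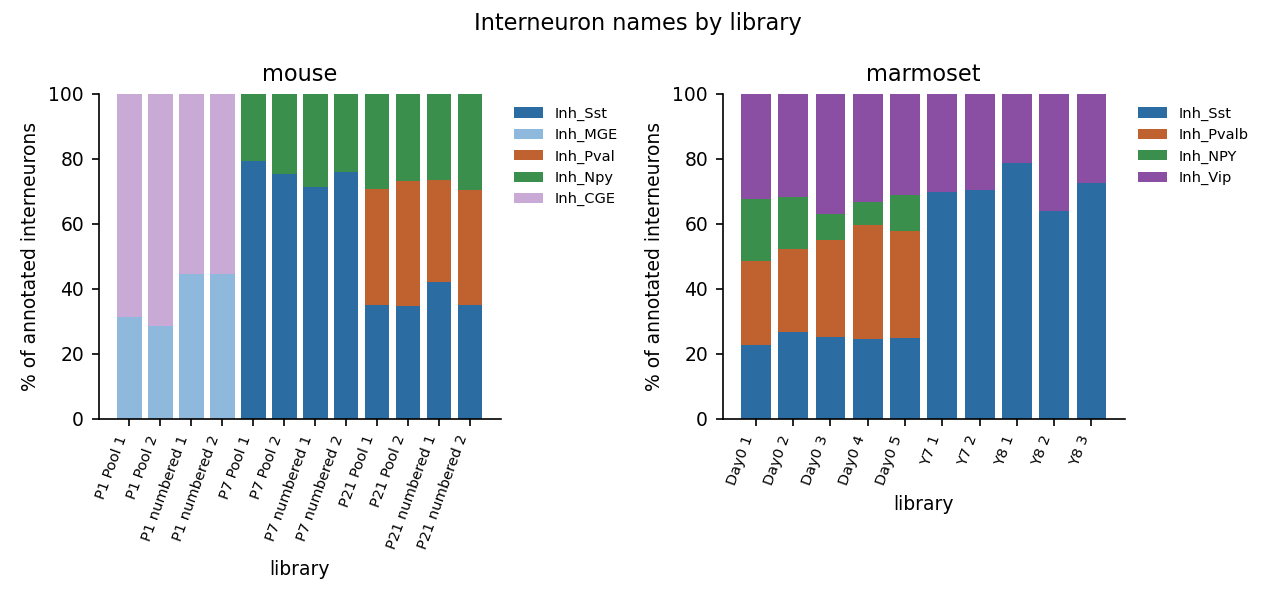
Stacked bars give the percentage of each library's annotated interneurons (vertical axis) under each name, by library (horizontal axis); Inh_Pval and Inh_Pvalb are the parvalbumin names. Somatostatin cells, the dark blue segment, are absent at P1, where cluster 6 carries the name Inh_MGE, and parvalbumin cells appear at P21 and Day0 only.

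Against pyramidal neurons alone, the excitatory projection cells, the differences had the same directions. Somatostatin cells were 13.1% ± 1.58 of both together at P7 and 5.25% ± 0.273 at P21 (SD, n = 4 each), a fold of 0.400 (adjusted p = 0.0317, exact permutation test). The same share was 17.1% ± 1.28 in newborn and 41.5% ± 11.5 in adult marmoset (SD, n = 5 each), a fold of 2.43 (adjusted p = 0.0317, exact permutation test). Counting unassigned mouse cells among the neurons gave 9.98% at P7 and 4.61% at P21, since most unassigned cells belonged to P7.

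Read depth in mouse moved with the share at P7 but not evenly at P21. Neurons of each library were ordered by their reads per cell and divided into 3 equal parts. At P7 somatostatin cells were 16.7% ± 2.47 of the low-read part, 12.8% ± 2.94 of the middle part and 8.22% ± 1.08 of the high-read part (SD, n = 4 libraries), and the low-read part held a larger share than the high-read part in 4 of 4 libraries. At P21 the shares were 5.46% ± 0.760, 4.64% ± 0.718 and 4.35% ± 1.51 (SD, n = 4), and the high-read part was above the low-read part in 2 of 4 libraries. The difference between the ages therefore ran from a fold of 0.326 in the low-read part to 0.529 in the high-read part. It was in the same direction in each part.

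In marmoset the middle part held the largest mean share at both ages. Newborn shares were 8.07% ± 1.49, 13.8% ± 3.14 and 11.8% ± 2.74 from the low-read to the high-read part (SD, n = 5 libraries), and the high-read part was above the low-read part in 4 of 5 libraries. Adult shares were 37.5% ± 18.3, 40.0% ± 12.2 and 28.7% ± 11.3 (SD, n = 5), with 3 to 41 somatostatin cells in a part of a library. In means, adults had 4.65, 2.90 and 2.42 times the newborn share in the low-read, middle and high-read part. The excess in adults was thus present at each depth, and smallest among the cells with most reads.

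**Figure D3:**
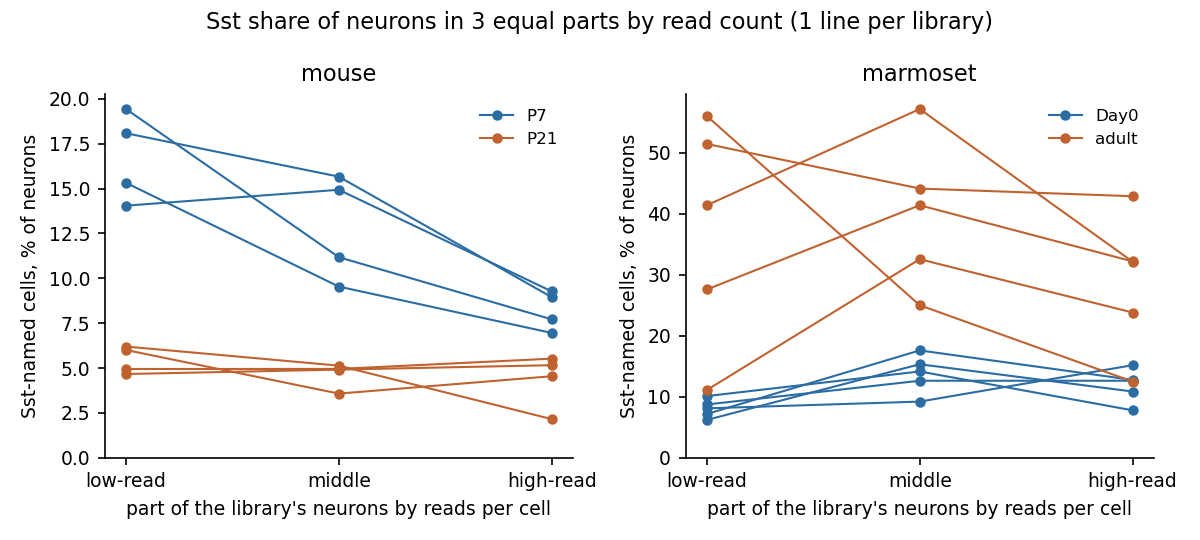
Somatostatin cells as a percentage of neurons (vertical axis) within 3 equal parts of each library's neurons ordered by reads per cell (horizontal axis), with 1 line per library. The P7 lines run downward from a mean of 16.7% to 8.22%, the P21 points lie between 2.16% and 6.20%, and 1 adult marmoset point, 12.5% in a high-read part, lies within the newborn range of its part.

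Somatostatin cells had more reads at P21 than at P7. Their median reads per cell at P7 were 3022.5 and 2553 in the numbered and 2367 and 2905 in the Pool libraries. At P21 they were 4262.5 and 3225 in the numbered and 4128 and 3226.5 in the Pool libraries, so that every P21 library lay above every P7 library. The P21 medians were close between libraries of the same number, and the tests took these libraries as separate units. Whether they were independent was not tested. The means were 2712 ± 304 and 3710.5 ± 562 (SD, n = 4 each), 1.37-fold higher at P21 (exact permutation p = 0.0286, adjusted p = 0.0317). Median peaks per cell went the same way, from 1477 ± 200 to 2029 ± 288 (SD, n = 4), 1.37-fold higher (exact permutation p = 0.0286, adjusted p = 0.0317). The calls for reads and peaks were both lost when any P7 library was left out (adjusted p of 0.0571 to 0.0857, exact permutation test), with differences of 884 to 1102 reads and 467 to 618 peaks. Median reads of the other neurons were 3478.5 ± 450 at P7 and 4010 ± 92.9 at P21 (SD, n = 4). The authors sampled libraries to a similar depth per cell, and the part of that step in the difference was not tested.

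Pooled over libraries, the middle of the distribution ran from 1766 to 4116 reads at P7, with a median of 2637, and from 2234 to 6038 at P21, with a median of 3799. Under 2000 reads were 185 of the P7 cells (32.4%) and 73 of the P21 cells (20.3%). Above 12000 reads there was 1 cell at P7 and there were 18 at P21 (5.01%).

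Marmoset somatostatin cells had fewer reads in adults than in newborns. Newborn medians per library were 9757, 7909, 9145, 8055.5 and 9205.5 reads. Adult medians were 8871 and 6617.5 in Y7 and 6119.5, 6163 and 5960 in Y8. The first Y7 library lay within the newborn range and the other 4 adult libraries below it. The mean fell from 8814 ± 798 to 6746 ± 1213 reads (SD, n = 5 each), a difference of -2068 (exact permutation p = 0.0238, adjusted p = 0.0317). Median peaks fell from 4402 ± 379 to 3489 ± 597 (SD, n = 5), a difference of -913 (exact permutation p = 0.0317, adjusted p = 0.0317). The peak call was lost without any 1 of the second Y7 and the 3 Y8 libraries (adjusted p = 0.0556, exact permutation test), with differences of -820 to -901. The read call was lost with geometric means in place of medians (-1276 reads, exact permutation p = 0.0556) and with agreeing libraries averaged (-1962 reads, exact permutation p = 0.114). With the Y7 libraries alone as adults the differences were -1070 reads and -416 peaks, and neither passed (exact permutation test, n = 5 and 2, adjusted p = 0.286 and 0.429). Above 12000 reads were 163 newborn cells (24.1%) and 47 adult cells (16.7%), close to the upper limit on reads that the authors set. Among cells of up to 12000 reads the difference was -1149 reads (adjusted p = 0.0476) and -458 peaks (adjusted p = 0.159, exact permutation test each). The adjustment for reads kept the peak value of all cells in its family, so no call was drawn from it.

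Within a library, age, depth and chemistry are shared, so somatostatin cells were compared with the other neurons of their own library. In mouse the ratio of median reads was below 1 in all P7 libraries, at 0.844 and 0.673 in the numbered and 0.841 and 0.780 in the Pool libraries. At P21 it was 1.04 and 0.812 in the numbered and 1.06 and 0.790 in the Pool libraries, so the libraries with number 1 lay above 1 and those with number 2 below. Over the 8 libraries the mean log2 ratio was -0.24 ± 0.22 (SD), a ratio of 0.847, with fewer reads in 6 of 8. This did not pass after adjustment over 4 tests (exact sign-flip permutation p = 0.0313, adjusted p = 0.0625).

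The comparison turned with the kind of neuron. Against the other interneurons of the library, somatostatin cells had more reads in 8 of 8 mouse libraries, by 1.45-fold on average (mean log2 ratio 0.53, adjusted p = 0.0156, exact sign-flip permutation test). Against pyramidal neurons the ratio was 0.817, with fewer reads in 6 of 8 libraries (adjusted p = 0.0625, exact sign-flip permutation test). By name, the ratio to Npy cells was 1.50 at P7 and 1.51 at P21, and to parvalbumin cells at P21 it was 1.31, with somatostatin cells higher in 4 of 4 libraries each time. In order of mean library medians at P21, somatostatin cells had rank 4 of 7 neuron types at 3710.5 reads. ScPN, the subcerebral projection neurons, stood above them at 4818.5 and Npy cells were last at 2457 reads. Somatostatin cells were thus the interneurons with the most reads of those named in mouse at P7 and P21.

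In marmoset no such order held across ages. The ratio of median reads to other neurons at Day0 was 1.35, 1.09, 1.09, 0.929 and 1.07. On the log2 scale the adult ratios were 0.37 and 0.14 in the Y7 libraries but -0.48, -0.52 and -0.31 in the Y8 libraries. The 2 adult labels thus stood on opposite sides of equal reads. Over the 10 libraries the mean log2 ratio was -0.01 ± 0.33 (SD; exact sign-flip permutation p = 0.916), with 6 libraries above 0 and 4 below. The ratio to Vip cells was 1.23 at Day0, above 1 in 5 of 5 libraries, and 0.889 in adults, above 1 in 2 of 5. At Day0 the ratios to NPY cells and parvalbumin cells were 1.42 (5 of 5 libraries above 1) and 1.12 (4 of 5).

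**Figure D4:**
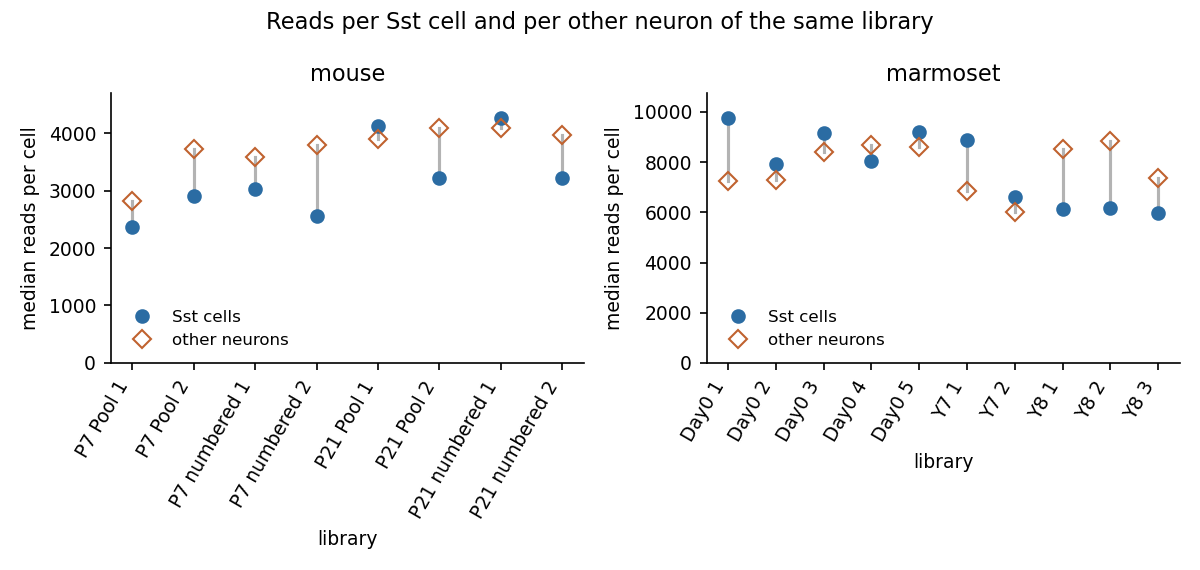
Median reads per cell (vertical axis) of somatostatin cells (filled circles) and of the other neurons of the same library (open diamonds), by library (horizontal axis), joined by a line. The circle lies below the diamond in 6 of 8 mouse libraries and in all 3 Y8 libraries, and above it in both Y7 libraries.

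The ratios did not pass a test between ages. In mouse the mean log2 ratio was -0.36 ± 0.15 at P7 and -0.12 ± 0.23 at P21 (SD, n = 4 each), which differed by 0.23 (exact permutation test, adjusted p = 0.305). Newborn marmoset libraries had a mean of 0.13 ± 0.19 and adult ones of -0.16 ± 0.39 (SD, n = 5 each), which differed by -0.29 (exact permutation test, adjusted p = 0.305). With the Y8 libraries alone as adults the difference was -0.57 (exact permutation p = 0.0179, n = 5 and 3), whereas the Y7 libraries alone gave 0.12 (exact permutation test, n = 5 and 2, adjusted p = 0.476). The direction of the difference in marmoset thus depended on the adult label. The adjusted p with Y8 alone was 0.0357, with the rest of its family kept at the values of all adults. The family was not adjusted with Y8 values throughout, so no call was drawn from it.

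Peaks per cell rise with reads per cell, so peaks were compared at matched reads. For each somatostatin cell, its peak count was divided by the median peak count of other neurons of the same library in the same of 10 equal bins of read counts. In marmoset somatostatin cells had fewer peaks at matched reads in 10 of 10 libraries. The median differences per library at Day0 were -1.30%, -2.48%, -1.55%, -1.02% and -1.12%. In adults they were -3.41% and -3.25% in Y7 and -2.39%, -3.93% and -3.10% in Y8. The mean log2 ratio was -0.03 ± 0.02 (SD, n = 10), or -2.36% (exact sign-flip permutation p = 0.00195, the smallest 10 libraries allow, adjusted p = 0.00781). Without the first and second Day0 libraries the log2 difference was -0.036 (adjusted p = 0.0313, exact sign-flip permutation test, n = 8). The call was lost with read counts divided into 5 bins (log2 difference -0.037, adjusted p = 0.0625, exact sign-flip permutation test). With 20 bins the log2 difference was -0.023 (exact sign-flip permutation p = 0.0293). Its adjusted p of 0.0625 kept the mouse value of 10 bins in the family. The mouse p with 20 bins was smaller, 0.00781 in the same test, so the call at 20 bins was left undecided.

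The comparison group mattered again. Against pyramidal neurons the marmoset difference was -3.73%, below 0 in 10 of 10 libraries (adjusted p = 0.00781, exact sign-flip permutation test). Against other interneurons it was -0.00122%, with 5 libraries above 0 and 5 below (adjusted p = 0.998, exact sign-flip permutation test). The differences to other interneurons ran from -0.557% to 0.991% at Day0 and from -10.7% to 11.1% in adults, where few Vip cells served for comparison. The Y8 libraries held 13, 13 and 14 Vip cells for 10 bins. Somatostatin cells in bins with fewer than 3 of them were left out. At matched reads somatostatin cells thus had fewer peaks than pyramidal neurons, and no difference from other interneurons was detected. Adults lay further below 0 than newborns against all other neurons, -3.22% ± 0.560 and -1.50% ± 0.588 (SD, n = 5 each), but this did not pass after adjustment (exact permutation p = 0.0159, adjusted p = 0.0635).

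Mouse cells showed a smaller difference of the same sign. At P7 the median differences were -2.80%, -2.79%, -0.772% and -2.21% in the numbered and Pool libraries in order, all below 0. At P21 3 libraries lay at 0.0643%, 0.237% and 0.0252%, and the second Pool library at -3.75%. The mean over 8 libraries was -1.51% (adjusted p = 0.0833, exact sign-flip permutation test), with 5 libraries below 0. Without the first Pool library of P7 the mean log2 ratio was -0.024 (adjusted p = 0.167, exact sign-flip permutation test, n = 7). With 20 bins of read counts it was -0.011 and passed (adjusted p = 0.0156, exact sign-flip permutation test). Against pyramidal neurons it was -1.69%, below 0 in 7 of 8 libraries (adjusted p = 0.0417), and against other interneurons 0.739%, below 0 in 4 of 8 (adjusted p = 0.531, exact sign-flip permutation test each). With 10 bins the mouse difference was thus also with pyramidal neurons, and was close to 0 in 3 of the 4 libraries of P21. The difference between ages did not pass (log2 difference 0.019, adjusted p = 0.343, exact permutation test, n = 4 each).

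**Figure D5:**
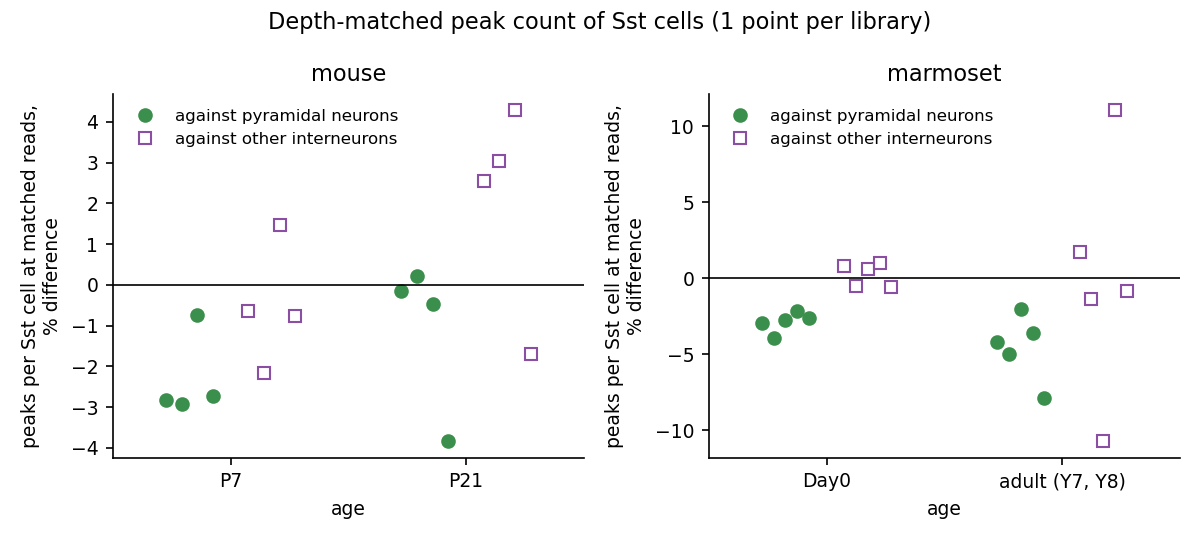
Percent difference in peaks per cell between somatostatin cells and other neurons at matched reads (vertical axis), by age (horizontal axis), against pyramidal neurons (filled circles) and other interneurons (open squares), with 1 point per library. All 10 marmoset points and 7 of 8 mouse points against pyramidal neurons lie below 0, whereas the points against interneurons lie on both sides.

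Set side by side without a test, somatostatin cells were 12.6% of neurons in P7 mouse and 11.2% in newborn marmoset, and 4.82% in P21 mouse and 35.5% in adult marmoset. Their median reads were lower in mouse, 2712 and 3710.5 at P7 and P21, than in marmoset, 8814 and 6746 in newborn and adult. Ages, chemistry and the sets of names differed between the species, and their parts cannot be told apart.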

How the data were processed

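Single-cell ATAC-seq cell tables of 12 mouse and 10 marmoset libraries were used. Per the study's methods, the authors aligned reads with Bowtie2 to mm10 or the marmoset genome, removed duplicates with Picard, sampled libraries to a similar depth per cell, called peaks with MACS2 (named in the submitters' processing notes with mm10), filtered cells on reads and peaks, clustered cells of all ages jointly, split clusters by time point and named them from gene activity scores. The sources used here do not give how doublets were treated. The tables as deposited by the authors hold counts, the reads and the peaks with a read in each cell, without normalization. The libraries summed to 2186788 to 15904940 reads in mouse and 5139726 to 13441944 in marmoset.

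Samples were grouped by their labelled age. Y7 and Y8 were joined as adults. Neurons were cells with a pyramidal or interneuron name, and 1697 unassigned mouse cells were left out. Group means weighed libraries equally. Differences between ages were tested with exact two-sided permutation tests over libraries, and within-library log2 ratios with exact sign-flip permutation tests, with Benjamini-Hochberg adjustment in families of 6, 4 and 4 tests and a threshold of 0.05. The p-value of each alternative took the place of its main value in the family, with the rest of the family kept at the main values. No adjustment covered the comparison groups or the other alternatives as a set. Matching of reads used 10 bins with at least 3 comparison cells. Against all other neurons this left out 12 adult marmoset somatostatin cells. The number left out against pyramidal neurons or other interneurons alone was not counted. No limit was drawn from the count of 0 at P1, since names were given to whole clusters at each age. Some library pairs had cell type makeups that agreed within sampling noise; they held distinct cells and were kept apart, with averaging as an alternative. No gene was named by a rule, since the tables hold no gene-level value. The members, lists and tests were chosen with earlier results of these data known. Scripts, tested on simulated data, used Python 3.11.15, NumPy 2.4.6, pandas 2.3.3 and SciPy 1.17.1. Alternatives covered single libraries, library series, adult labels, depth limits, comparison groups, bins and the replicate block.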

Additional observations from a re-analysis of the deposited data

Results flagged for a closer look

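Of 20 groups of libraries checked for a single value far from the rest, 3 held one, and chance gives about 1 in 20. In P21 mouse, the second Pool library had a depth-matched log2 peak ratio of -0.055 to other neurons, against 0.00036 to 0.0034 in the other 3 libraries. It held 50 somatostatin cells. Among adult marmoset libraries, the first Y7 library had a median of 8871 reads per somatostatin cell, against 5960 to 6617.5 in the other 4. The same library had a median of 4533 peaks, against 3114 to 3439.5.

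The adult marmoset labels differed in the read ratio of somatostatin cells to other neurons. The mean log2 ratio was 0.26 in the 2 Y7 libraries, both above 0, and -0.43 in the 3 Y8 libraries, all below 0, a difference of -0.69 (exact permutation p = 0.1, the smallest that 2 against 3 libraries can give). The second group held 23 to 48 somatostatin cells in each library.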

How the results depend on the processing

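Over 14 results, 227 alternative values were computed. Each alternative p-value was adjusted with the rest of its family kept at the main values, and passing refers to that adjustment. Of these, 150 kept their direction and side of the threshold, 27 kept their direction but no longer passed it, 4 passed it newly and 11 changed sign. Another 29 kept their direction with too few libraries for any test to pass, and 6 from pooled cells kept it with no test. The mouse share kept its direction in all 20 alternatives and passed wherever the number of libraries allowed it. Leaving out 1 library gave -8.44 to -7.23 points for it and 21.6 to 27.5 for the marmoset share.

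Leaving out 1 library moved the mouse differences to between 815 and 1160 reads and 465 and 641 peaks. Those that did not pass left out a P7 library, with 1102, 946, 884 and 1063 reads and 618, 534, 467 and 590 peaks without numbered 1, numbered 2, Pool 1 and Pool 2. The marmoset peak difference ran from -1174 to -820, and the difference in depth-matched log2 ratio between marmoset ages from -0.029, which passed, to -0.023. The marmoset log2 read ratio ran from -0.062 to 0.044, above 0 without any 1 of the Y8 libraries. Medians replaced by geometric means gave 795 reads and 451 peaks in mouse, -1276 reads and -523 peaks in marmoset, none passing, and a marmoset read ratio of 0.10. Cells with at least the median reads gave 427 peaks in mouse and -766 in marmoset, neither passing. With Y7 alone the differences were -1070 reads and -416 peaks, neither passing, and 0.12 in the read ratio. With Y8 alone the read ratio difference was -0.57, which passed only beside the values of all adults in its family. The Day0 libraries alone gave a read ratio of 0.13. The Pool libraries alone gave a difference between mouse ages of -0.0056 in the depth-matched log2 ratio. With other interneurons as comparator the log2 ratios were 0.53 for reads and 0.011 for peaks in mouse, and 0.047 and -1.76e-05 in marmoset. With pyramidal neurons the mouse depth-matched ratio of -0.025 passed. With 5 bins of read counts the depth-matched ratio was -0.037 in marmoset, not passing. With 20 bins it was -0.011, which passed, in mouse and -0.023, which did not, in marmoset. The cause of these changes was not tested.

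Some alternatives were chosen after seeing the data. At up to 12000 reads the marmoset differences were -1149 reads, passing only beside the values of all cells in its family, and -458 peaks, not passing. The log2 read ratio to other interneurons differed by -0.10 between mouse ages. Also chosen then were the shares with parvalbumin, Npy, Vip or pyramidal names. So were the results without the first and second Day0 libraries or without the first Pool library of P7. Averaging libraries that agreed within sampling noise left 3 newborn and 4 adult units and gave 23.7 points, -1962 reads and -889 peaks, none passing (exact permutation p = 0.0571, 0.114 and 0.114). In mouse it left 2 and 3 units, which cannot pass, and a share difference of -7.08 points.

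Replicate numbers were shared between ages, and whether they pair the libraries could not be decided. Deviations correlated at over 0.1 in 1 of 4 mouse and 3 of 5 marmoset pairs. Each correlation rested on only 7 cell types in mouse or 8 in marmoset. With a replicate block the share differences were -7.77 and 24.1 points, but the smallest possible p was 0.125 and 0.0556, so none could pass.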
